A study of Mus musculus with 24 samples.

Results

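Hearts of mice with the nuclear genome of C57BL/6 (written BL/6J) were compared between the mitochondrial DNA (mtDNA) of the NZB strain and that of the C57 strain. The libraries were chosen by their labels alone: 3 left ventricle libraries of BL/6J:NZB (nuclear genome, colon, mtDNA) and 3 of BL/6J:C57, 6 of the 24 libraries in the series. BL/6J:C57 is the parental combination, and BL/6J:NZB is a conplastic line, made by 10 generations of backcrossing. The other 18 libraries are the livers of these genotypes and the hearts and livers of NZB:NZB and NZB:C57. All animals were males aged 10 weeks, 12 per genotype, and each library held RNA pooled in equal parts from 4 animals. RNA integrity scores were at least 7.9. Each genotype is 1 inbred line, so mtDNA cannot be told apart from anything else in which the lines differ, such as passenger segments of nuclear DNA or breeding. Replicates are separate pools, and the p-values reflect how far pools of a group lie apart.

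Mammalian mtDNA encodes a small set of respiratory chain subunits together with the ribosomal and transfer RNAs needed to translate them inside the organelle. All other subunits, the mitochondrial ribosomal proteins and the enzymes that copy, transcribe and process mtDNA come from nuclear genes, so a respiratory complex that holds an mtDNA-encoded subunit is assembled from products of both genomes. Heart muscle depends on this chain for the energy of contraction and calcium transport. The deposited values hold no gene annotated on mtDNA, so the mRNAs encoded by mtDNA itself were not analysed here.

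The 6 hearts held between 3772762 and 9895886 reads assigned to genes. Values are normalised read counts as deposited, and log2 fold changes are differences of log2(value + 1), which understate the change of low genes. The labelled tissue matched its markers: 14 cardiomyocyte markers summed to 65725 to 69995 in BL/6J:C57 and 61176 to 66298 in BL/6J:NZB. Replicates 1 and 3 of BL/6J:NZB differed by 6.87 chi-square units per gene, a measure that grows with depth, replicates 2 and 3 by 3.25 and the other pairs within the groups by 2.08 to 2.97. Replicate 3 held more of the liver transcript Alb (130.5, against 13.1 and 16.04 in replicates 1 and 2). The nuclear genome matched the label. Of 65 genes that differed at least 8-fold without overlap between BL/6J:C57 and NZB:NZB hearts, 63 lay nearer to BL/6J:C57 in all 3 BL/6J:NZB libraries, and the 2 exceptions were Gm13340 and Gm8116. Mmrn1, a platelet and endothelial glycoprotein, was at 0 in all BL/6J hearts and livers and at 4.698 to 12.1 in the 6 hearts with the NZB nuclear genome.

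The change that stood furthest from the rest concerned nuclear genes that resemble mtDNA. Gm13340 (ENSMUSG00000083563, GRCm38 chromosome 2, 22588103 to 22589647, minus strand) is annotated as an unprocessed pseudogene. Over 1545 aligned bases it differs at 37 positions (97.6% identity) from mt-Co1, which encodes the largest subunit of cytochrome c oxidase, and 45.2% of its words of 31 bases also occur in mtDNA transcripts. The 150 bases from position 454 to 603 of its transcript are printed because they hold 7 of these differences from the reference mt-Co1, shown in capitals. The sequence is from the GENCODE M21 transcripts, and the NZB sequence of either copy was not analysed here.
Gm13340, chr2:22589045-22589194, minus strand: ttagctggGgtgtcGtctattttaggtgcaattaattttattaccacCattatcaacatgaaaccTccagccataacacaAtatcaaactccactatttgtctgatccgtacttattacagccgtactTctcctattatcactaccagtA

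Gm13340 was 1.09, 1.43 and 1.48 in BL/6J:C57 and 101, 109.7 and 65.9 in BL/6J:NZB. These values rest on 12, 9 and 8 reads against 678, 691 and 920. All NZB mtDNA hearts were far above all C57 mtDNA hearts on this nuclear genome. The difference passed the test (log2 fold change 5.29, SE 0.17, adjusted p = 2.78e-12) and did so without any one library of the 2 groups. On the NZB nuclear genome the gene was present with either mtDNA, at 39.2, 36.5 and 33.3 in NZB:NZB hearts and 28.4, 22.04 and 19.4 in NZB:C57 hearts. In livers on the BL/6J nuclear genome it was 25.2, 9.28 and 8.42 with NZB mtDNA and 0.529, 0.725 and 0.438 with C57 mtDNA. In hearts the 4 genotypes did not overlap: BL/6J:NZB was highest, then NZB:NZB, NZB:C57 and BL/6J:C57.

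A search of every gene of the table for words of 31 bases shared with mtDNA transcripts found 7 genes. Gm4076 (chromosome 13, 85126550 to 85127514), a processed pseudogene that shares 24.6% of its words with mt-Nd5, the mtDNA gene for a membrane subunit of complex I, was 0, 0 and 0.185 in BL/6J:C57 and 2.83, 3.18 and 1.15 in BL/6J:NZB. It had 19, 20 and 16 reads with NZB mtDNA and 0, 0 and 1 with C57 mtDNA, and it rose by 1.62 on the log2(value + 1) scale (SE 0.27, adjusted p = 0.0187). On the NZB nuclear genome Gm4076 was 1.03, 2.09 and 2.03 in NZB:NZB hearts and 0.1698, 0.165 and 0.662 in NZB:C57 hearts. The other 5 genes were chosen after their values were seen. Gm13339, next to Gm13340 on chromosome 2 and sharing 28.3% with mt-Nd2, had 0, 1 and 1 reads with C57 mtDNA and 9, 14 and 12 with NZB mtDNA, and did not pass the test (adjusted p = 0.0792). Gm11408, sharing 7.36% with mt-Nd6, had 0 reads in all 3 BL/6J:C57 hearts and 4, 4 and 7 reads in BL/6J:NZB, and was too low to be tested. Not every gene of this kind was higher. Gm10222, all of whose words occur in mtDNA transcripts and foremost in mt-Nd4l, was 17.3, 19.1 and 18.7 in BL/6J:C57 and 16.1, 18.1 and 13.3 in BL/6J:NZB (log2 fold change -0.21, adjusted p = 0.412). Gm13341, on the other side of Gm13340 and sharing 47.98% with mt-Co2, had 3, 11 and 7 reads in BL/6J:C57 and 3, 3 and 5 in BL/6J:NZB and was not tested, and Cep295 shares 4 words with the transfer RNA gene mt-Ty. Whether reads of these genes come from the nuclear copy or from mtDNA of either strain was not tested.

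**Figure D1:**
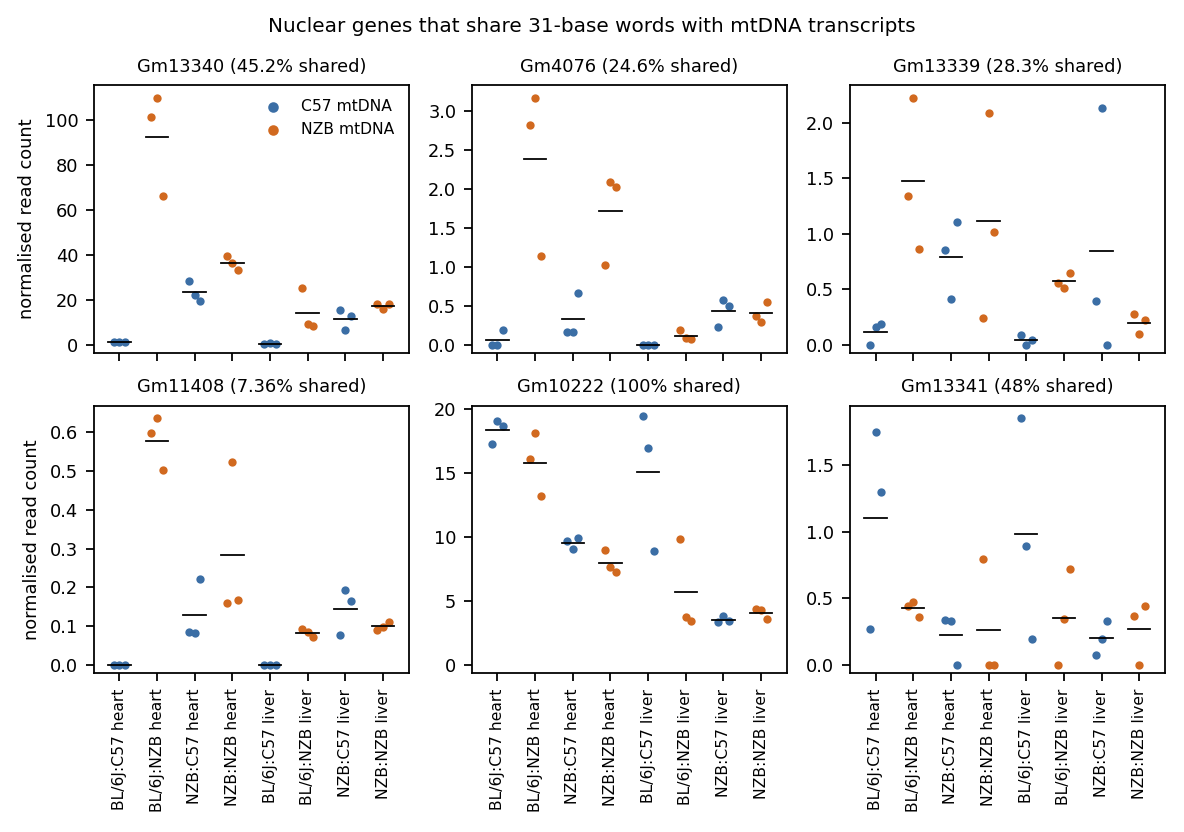
Normalised read counts of 6 nuclear genes that share words of 31 bases with mtDNA transcripts, in all 24 libraries (points, 3 pools per group; lines, group means; blue, C57 mtDNA; orange, NZB mtDNA), each panel with its own axis. Gm13340 lay between 65.9 and 109.7 in BL/6J:NZB hearts and between 1.09 and 1.48 in BL/6J:C57 hearts, while Gm10222 overlapped between them.

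The other changes were counted over all genes. With NZB mtDNA 59 genes were higher and 70 lower of 13803 tested (0.427% and 0.507%, limma, adjusted p under 0.05), and in each of them all 3 libraries of a group lay outside the range of the other. Over all genes tested 10.1% had all 3 BL/6J:NZB libraries above all 3 BL/6J:C57 libraries and 12% had all 3 below, and these shares are the background for the counts given with each gene group. Some called genes of low level rose severalfold. ENSMUSG00000092665 was 1.09, 1.11 and 0.924 in BL/6J:C57 and 3.28, 5.56 and 4.23 in BL/6J:NZB (log2 fold change 1.37, adjusted p = 0.0187), and ENSMUSG00000092773 has equal values in these 6 hearts, so the pair may be 1 signal counted for both. The predicted gene Gm10600 was 2.01, 0 and 0.739 in BL/6J:C57 and 3.58, 2.86 and 3.94 in BL/6J:NZB (1.35, adjusted p = 0.0473). Gm10600 shares 95.4% of its words of 31 bases with other genes, so its own level is uncertain. The transcript 1700088E04Rik was 0.182, 0 and 0 in BL/6J:C57 and 1.19, 0.953 and 1.65 in BL/6J:NZB (1.09, adjusted p = 0.0481). These genes were chosen after their values were seen. At an unadjusted p under 0.05 there were 1116 higher and 1224 lower genes. Of the called genes, 58 and 69 were also called by edgeR, and 43 and 65 by DESeq2, which gave no adjusted p for 20 of the 129. The number called rested on single libraries and on the filter. It was 5 higher and 1 lower without BL/6J:NZB replicate 3, and 7 and 1 when replicate 2 of that group was left out. It was 109 and 86 without its replicate 1, 8 and 0 without BL/6J:C57 replicate 1, and 6 and 0 without BL/6J:C57 replicate 3. With no filter on low values 2 genes were called higher and 1 lower, and without the NZB:C57 hearts in the shared fit 18 and 14. Gm13340, Myh7, Malat1 and an unnamed gene (ENSMUSG00000089944) were called whichever library of the compared groups was left out, and each of the 129 genes kept its direction in those fits.

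**Figure D2:**
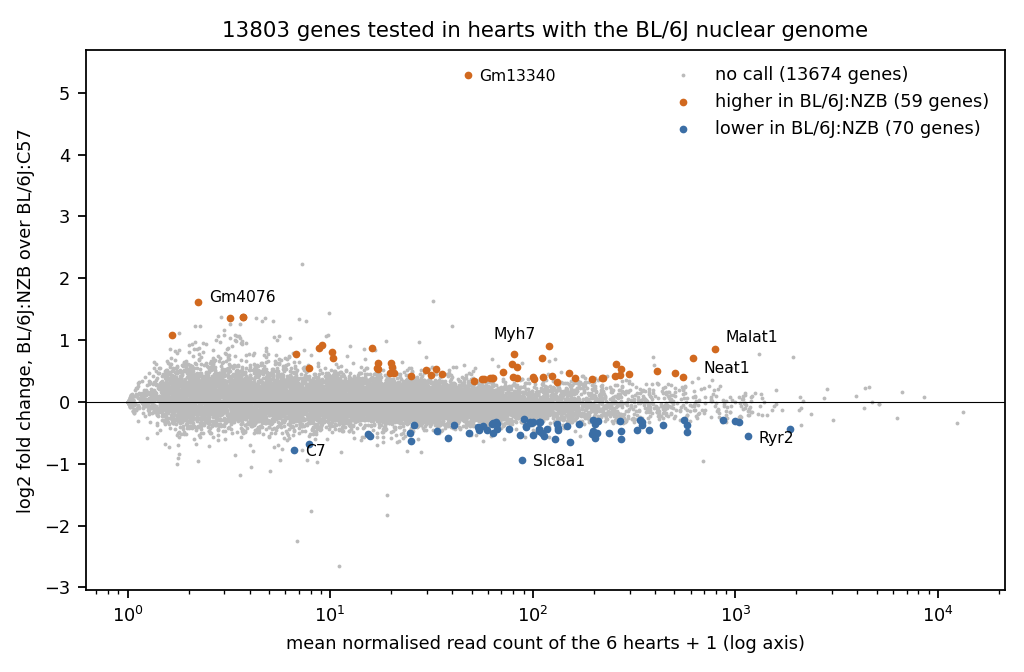
Log2 fold change of BL/6J:NZB over BL/6J:C57 hearts against the mean level of the 6 hearts (log axis) for the 13803 genes tested, with 59 called higher (orange), 70 called lower (blue) and the rest in grey. Gm13340 stands at 5.29, and the other called genes lie between -0.94 and 1.62.

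RNAs of the nucleus and of splicing were among the genes that rose. Of 28 tested members of a list of nuclear-retained long noncoding RNAs and splicing genes, 5 rose and 0 fell. In the list 14 had all 3 libraries above BL/6J:C57 and 2 all 3 below. Their median log2 fold change was 0.22 against 0.00 over all genes. Malat1 (ENSMUSG00000092341, chromosome 19, 5795690 to 5802672), a long noncoding RNA of nuclear speckles, was 497, 623 and 562 in BL/6J:C57 and 913, 1035 and 1096 in BL/6J:NZB. It rose in every pool (log2 fold change 0.86, SE 0.11, adjusted p = 0.00192). Neat1 (chromosome 19, 5824708 to 5845478), the scaffold RNA of paraspeckles, was 415, 563 and 421 in BL/6J:C57 and 693, 742 and 847 in BL/6J:NZB (log2 fold change 0.71, SE 0.11, adjusted p = 0.00816). Both lie on chromosome 19 within 2 Mb of each other and of the called genes Doc2g and Map4k2, chosen after their values were seen. Clk1, a kinase that phosphorylates splicing factors, was 58.9, 73.1 and 52.1 in BL/6J:C57 and 84.5, 88.6 and 109 in BL/6J:NZB. Luc7l3, a protein associated with the U1 particle that marks splice donors, was 51.3, 68.5 and 55.6 in BL/6J:C57 and 80.3, 80.4 and 84.3 in BL/6J:NZB. Both rose, by 0.61 and 0.49 on the log2 scale (adjusted p = 0.0421 and 0.0421). Of genes chosen after their values were seen, the splicing factor Srsf3 rose by 0.41, Rsrp1 by 0.39 and Gas5, a host gene of small nucleolar RNAs, by 0.53. Srsf3 and Doc2g share 13.8% and 58.9% of their words with other genes. The median of the list was 0.18 without BL/6J:NZB replicate 3, -0.06 in livers on this nuclear genome and 0.29 in hearts on the NZB nuclear genome.

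Myosin genes were split. Myh7 (ENSMUSG00000053093, chromosome 14, 54970684 to 54994626), the slow beta-myosin heavy chain of the mouse ventricle before birth, was 79.7, 97.1 and 72.1 in BL/6J:C57 and 152, 133 and 184 in BL/6J:NZB (log2 fold change 0.91, SE 0.11, adjusted p = 0.00192). It shares 22.6% of its words with its neighbour Myh6, the far more abundant adult alpha-myosin heavy chain, so its own level is uncertain. Myh6 itself, named after its values were seen, was 15114, 13614 and 13418 in BL/6J:C57 and 12215, 12589.6 and 12696 in BL/6J:NZB, lower in all 3 pools but without a call (log2 fold change -0.17, adjusted p = 0.462). Myh7b, a myosin of slow muscle, was 59.9, 71.04 and 46.6 in BL/6J:C57 and 103, 92.8 and 107 in BL/6J:NZB (log2 fold change 0.78, SE 0.12, adjusted p = 0.00869). Of 18 thick filament and titin genes 2 rose and 1 fell, with a median of 0.08. The one that fell, Smyd1, a methyltransferase needed for sarcomere assembly, was 629, 579 and 628 in BL/6J:C57 and 496, 515 and 494 in BL/6J:NZB (-0.29, adjusted p = 0.0429, or 0.0511 with the trend over transcript length taken out of each library). Of 30 genes of the fetal and hypertrophy program Myh7 was the 1 called, 7 had all 3 libraries below and 1 all 3 above, with a median of -0.09. The natriuretic peptide gene Nppa was 471, 243 and 202 in BL/6J:C57 and 407, 476 and 547 in BL/6J:NZB, and skeletal actin, Acta1, was 365, 323 and 424 in BL/6J:C57 and 705, 349 and 243 in BL/6J:NZB. The groups overlapped in both.

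Some small nuclear subunits of the respiratory chain rose. Of 36 tested complex I genes 2 rose, 18 had all 3 BL/6J:NZB libraries above and 2 all 3 below, with a median log2 fold change of 0.19. Ndufa5, an accessory subunit of its matrix arm, was 233, 274 and 242 in BL/6J:C57 and 305, 344 and 385 in BL/6J:NZB (log2 fold change 0.46, SE 0.09, adjusted p = 0.0303). Ndufs6, an accessory subunit of the same arm, was 183, 200.4 and 185 in BL/6J:C57 and 218, 249.5 and 275 in BL/6J:NZB (log2 fold change 0.38, SE 0.08, adjusted p = 0.0423). In both genes replicate 3 was the highest library of BL/6J:NZB and replicate 1 the lowest.

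Complex IV had 2 of 17 genes called higher and 10 with all 3 libraries above, with a median of 0.24. Cox7b, an accessory subunit of cytochrome c oxidase, was 466, 502 and 453 in BL/6J:C57 and 559, 644 and 688 in BL/6J:NZB (log2 fold change 0.41, SE 0.09, adjusted p = 0.04402). Cox7c, another such subunit, was 197, 217 and 188 in BL/6J:C57 and 239.8, 327 and 364 in BL/6J:NZB (log2 fold change 0.61, SE 0.13, adjusted p = 0.0425). The ATP synthase list had 2 of 17 called higher and 9 with all 3 above, with a median of 0.26. Atp5l, subunit g of the membrane part of ATP synthase, was 448, 449 and 372 in BL/6J:C57 and 488, 605 and 661 in BL/6J:NZB (log2 fold change 0.46, SE 0.10, adjusted p = 0.0455). Atpif1, the inhibitor of the enzyme's reverse reaction, was 64.99, 66.3 and 71.1 in BL/6J:C57 and 80.3, 89.7 and 99.4 in BL/6J:NZB (log2 fold change 0.40, SE 0.09, adjusted p = 0.04402). In these 4 genes too, replicate 1 lay nearest to the BL/6J:C57 range and replicate 3 furthest from it.

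Other parts of oxidative phosphorylation held fewer calls. Complex II, whose subunits are all nuclear, had 0 of 4 genes called and a median of -0.04, with Sdha at 1660.2, 1540.03 and 1583 in BL/6J:C57 and 1433, 1458 and 1454 in BL/6J:NZB. Complex III and cytochrome c had 0 of 10 called and a median of 0.20, with 5 having all 3 libraries above and 1 all 3 below. Its core subunit Uqcrc1 was 1228, 1048 and 1089 in BL/6J:C57 and 1028, 1124 and 1177 in BL/6J:NZB, and Uqcrc2 was 1112, 1089 and 1081 in BL/6J:C57 and 1026, 1062 and 1045 in BL/6J:NZB. Assembly factors had 0 of 42 called and a median of 0.04. Of 52 genes that copy, transcribe and process mtDNA 1 rose, Slirp, which with its partner Lrpprc keeps mitochondrial mRNAs stable. Slirp was 21.6, 24.95 and 23.6 in BL/6J:C57 and 32.2, 32.4 and 36.5 in BL/6J:NZB (log2 fold change 0.51, SE 0.10, adjusted p = 0.0304). In the whole list 5 had all 3 libraries above and 10 all 3 below, with a median of -0.04. Of 79 mitochondrial ribosomal protein genes 1 rose, Mrpl27, at 27.4, 22.7 and 27.2 in BL/6J:C57 and 33.7, 34.6 and 37.4 in BL/6J:NZB (log2 fold change 0.44, adjusted p = 0.04402). Of the 79, 15 had all 3 libraries above and 4 all 3 below. Cox7c, Ndufs6, Mrpl27 and Atp5l share 24.6%, 15.1%, 35.5% and 10.7% of their words with other genes, so their own levels are uncertain.

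Without BL/6J:NZB replicate 3 the medians of complexes I, III, IV and ATP synthase were 0.12, 0.11, 0.15 and 0.17. After a trend on transcript length was taken out of each library they were 0.14, 0.12, 0.15 and 0.16, and 0, 0, 0 and 0 members were then called. In hearts on the NZB nuclear genome the medians of complex I, complex IV and ATP synthase were -0.01, -0.02 and -0.05, and in livers on the BL/6J nuclear genome -0.18, -0.16 and -0.18.

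The 250 bases before the transcription start of Atp5l and Slirp are printed because, of the called genes named above whose windows were read, they hold the most matches to motifs of factors known for nuclear genes of mitochondria. The windows of Ndufa5, Ndufs6, Cox7b and Cox7c held none of the motifs, and that of Atpif1 held 1, the ERR site 239 bases before the start. Windows are from RefSeq (GRCm38.p6), whose starts can differ from the gene starts of GENCODE M21. They differ by 1755 bases for Atpif1, 323 for Ndufa5, 109 for Cox7c, 60 for Ndufs6 and 10 for Slc8a1. For Atp5l, Slirp and Cox7b the starts are the same. Both strands were searched for NRF1 (GCGCATGCG), the ETS core bound by GABPA (CCGGAAG), the estrogen-related receptor (ERR) site (AAGGTCA), YY1 (AAGATGGC), a TATA box (TATAAA) and MEF2 (TAAAAATA), and no motif contains another. Capitals mark the matches, which are descriptions of letters.
Atp5l, chr9:44920743-44920992, minus strand: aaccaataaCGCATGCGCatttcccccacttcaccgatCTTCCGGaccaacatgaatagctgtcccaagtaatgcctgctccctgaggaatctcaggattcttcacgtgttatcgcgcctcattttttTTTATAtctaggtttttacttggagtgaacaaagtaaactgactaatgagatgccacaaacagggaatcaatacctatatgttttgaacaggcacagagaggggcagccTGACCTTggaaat
Slirp, chr12:87443646-87443895, plus strand: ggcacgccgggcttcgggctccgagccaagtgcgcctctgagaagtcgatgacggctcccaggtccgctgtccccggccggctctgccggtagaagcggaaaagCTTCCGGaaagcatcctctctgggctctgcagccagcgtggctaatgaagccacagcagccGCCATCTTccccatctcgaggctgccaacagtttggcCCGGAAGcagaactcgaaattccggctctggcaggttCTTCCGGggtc

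In Atp5l the matches begin 241 (NRF1), 212 (ETS), 122 (TATA) and 13 bases (ERR) before the start, and in Slirp 146, 48 and 11 (ETS) and 85 bases (YY1) before it. Among all 10415 windows of tested genes 3% held the NRF1 letters, 13.6% the ETS core, 2.73% the ERR site, 1.97% YY1, 6.62% the TATA box and 1.18% MEF2. The ERR site was in 3 of 32 windows of complex I genes, 0 of 13 of complex IV genes and 3 of 13 of ATP synthase genes. The ETS core was in 3, 2 and 3 of these windows and NRF1 in 2, 1 and 2, while YY1 and MEF2 were in none. Of the 45 windows of genes called higher, 9 held the ETS core, 3 the ERR site, 3 MEF2, 2 NRF1, 5 the TATA box and 1 YY1. Of the 56 windows of genes called lower, 5 held the ETS core, 1 the ERR site, 1 MEF2, 3 NRF1, 5 the TATA box and 1 YY1.

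Some cytosolic ribosomal protein genes rose by small amounts. Of 76 tested 7 rose, 0 fell and 45 had all 3 BL/6J:NZB libraries above, with a median of 0.26. Rps12 was 81.7, 104 and 64.5 in BL/6J:C57 and 119.7, 136 and 150.1 in BL/6J:NZB (log2 fold change 0.71, SE 0.16, adjusted p = 0.0465). Rps24 was 219, 242 and 223 in BL/6J:C57 and 263, 328 and 338 in BL/6J:NZB and rose by 0.43 on the log2 scale (adjusted p = 0.0368). Rpl34 was 83.04, 85.5 and 88.3 in BL/6J:C57 and 107, 115 and 119 in BL/6J:NZB and rose by 0.40 (adjusted p = 0.0214). Rpl30 rose by 0.46 and Rpl35 by 0.39, and, chosen after their values were seen, Rpl23 by 0.41 and Rpl38 by 0.38. Of these 7, all but Rps24 share at least 10% of their words with other genes. With the length trend taken out 3 members were called and the median was 0.18, and without BL/6J:NZB replicate 3 it was 0.17. In livers it was -0.15 and in hearts on the NZB nuclear genome 0.01. The ETS core was in 17 of 55 windows of these genes and NRF1 in 0.

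Interferon-stimulated genes are switched on by interferon and by sensors of viral nucleic acid. Of 48 tested 2 rose, 0 fell, 17 had all 3 libraries above and 0 all 3 below, with a median of 0.21. Ifit1, which binds foreign RNA, was 6.84, 6.68 and 6.84 in BL/6J:C57 and 11.6, 12.2 and 11.5 in BL/6J:NZB (log2 fold change 0.71, SE 0.15, adjusted p = 0.0421). Gbp3, a guanylate-binding protein, was 12.4, 17.2 and 14.8 in BL/6J:C57 and 22.95, 21.9 and 25.1 in BL/6J:NZB (log2 fold change 0.63, SE 0.12, adjusted p = 0.0285). In neither gene did the groups overlap, and in Gbp3 the BL/6J:C57 pools lay as far from each other as the highest of them from the lowest BL/6J:NZB pool. Tap1, which carries peptides for antigen presentation into the endoplasmic reticulum, was 13.9, 11.4 and 13.1 in BL/6J:C57 and 18.5, 19.4 and 19.5 in BL/6J:NZB (log2 fold change 0.55, SE 0.12, adjusted p = 0.0465) and was the 1 called of 27 antigen presentation genes, a call lost with the length trend taken out (adjusted p = 0.0633). Trim12c, a relative of Trim5, was 8.93, 13.4 and 15.5 in BL/6J:C57 and 19.2, 21.6 and 18.3 in BL/6J:NZB (log2 fold change 0.63, SE 0.15, adjusted p = 0.0487). Trim12c and Ifit1 share 47.7% and 10.5% of their words with other genes. Chosen after their values were seen, Isg15 (0.41), Xaf1 (0.45), Zbp1 (0.49), Gbp2 (0.44), Oasl2 (0.39) and Bst2 (0.35) had all 3 libraries above without a call, while Mx2 was at -0.16 on the log2 scale. Of 19 genes that sense cytosolic DNA and RNA 0 were called, with a median of 0.09. The interferon median was 0.20 without BL/6J:NZB replicate 3 and 0.22 with the length trend taken out, and 2 members were called in the latter fit. In livers it was 0.00 and in hearts on the NZB nuclear genome 0.07.

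Calcium handling genes of the sarcoplasmic reticulum included 5 that fell. Slc8a1 (ENSMUSG00000054640, chromosome 17, 81373105 to 81738377), the sodium-calcium exchanger that removes calcium from the cell after each beat, was 122, 98.1 and 124 in BL/6J:C57 and 70.05, 60.4 and 49.1 in BL/6J:NZB (log2 fold change -0.94, SE 0.13, adjusted p = 0.00667). Every BL/6J:NZB pool was below every BL/6J:C57 pool. The call was lost without BL/6J:C57 replicate 1 and without BL/6J:C57 replicate 3, where the adjusted p was highest at 0.0553. Of 25 tested calcium handling genes 5 fell, 0 rose, 8 had all 3 libraries below and 2 all 3 above, with a median of -0.06. Ryr2, the release channel of the sarcoplasmic reticulum, was 1434, 1265 and 1392 in BL/6J:C57 and 969, 959.9 and 861 in BL/6J:NZB (log2 fold change -0.55, SE 0.12, adjusted p = 0.0453). Jph1 and Jph2 encode junctophilins, which hold the surface membrane next to the release channels. Jph1 was 19.7, 15.4 and 16.3 in BL/6J:C57 and 11.8, 10.96 and 12.04 in BL/6J:NZB and fell by 0.52 (adjusted p = 0.0463). Jph2, chosen after its values were seen, was 439, 363 and 367 in BL/6J:C57 and 319, 294 and 289 in BL/6J:NZB and fell by 0.37 (adjusted p = 0.0473). Srl, a calcium-binding protein of the reticulum, was 1254, 1110.4 and 1117 in BL/6J:C57 and 945, 931 and 887 in BL/6J:NZB (log2 fold change -0.33, SE 0.07, adjusted p = 0.0453). With the length trend taken out 2 of the 25 were called, and Jph1, Jph2 and Srl were not (adjusted p = 0.0703, 0.0656 and 0.0633). Tmem38a, a potassium channel of the same membrane that is not on the list, chosen after its values were seen, was 409, 368 and 377 in BL/6J:C57 and 305, 312 and 306 in BL/6J:NZB (-0.32, adjusted p = 0.0369).

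The promoter window of Slc8a1 is printed because this gene fell furthest of the genes called, and its single match, in capitals, is to the MEF2 letters 182 bases before the start.
Slc8a1, chr17:81738388-81738637, minus strand: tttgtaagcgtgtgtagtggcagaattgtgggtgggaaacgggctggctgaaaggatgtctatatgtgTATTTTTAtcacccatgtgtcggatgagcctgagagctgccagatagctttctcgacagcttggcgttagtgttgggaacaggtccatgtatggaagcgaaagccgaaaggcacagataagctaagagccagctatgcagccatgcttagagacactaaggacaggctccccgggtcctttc

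Of 17 windows of calcium handling genes 2 held the MEF2 letters, and of 21 of ion channel genes 0 did. Ion channels and pumps included 4 that fell. Of 35 tested 4 fell, 0 rose, 13 had all 3 libraries below and 0 all 3 above, with a median of -0.17. Kcnk3, a background potassium channel, was 246, 209 and 222 in BL/6J:C57 and 171, 176 and 182 in BL/6J:NZB (log2 fold change -0.35, SE 0.07, adjusted p = 0.0423). Abcc9, the sulfonylurea receptor subunit of the ATP-sensitive potassium channel, was 332, 312 and 307 in BL/6J:C57 and 229.96, 239 and 215 in BL/6J:NZB (log2 fold change -0.47, SE 0.09, adjusted p = 0.0256). Replicate 3 was the lowest BL/6J:NZB library in Abcc9 and the highest in Kcnk3. The median of the list was -0.17 without BL/6J:NZB replicate 3 and -0.16 with the length trend taken out, and 2 members were called in the latter fit, not including Kcnk3 (adjusted p = 0.0511). Slc7a1, a transporter of cationic amino acids that is on none of these lists, was 62.98, 50.9 and 54.7 in BL/6J:C57 and 42.03, 37.2 and 38.3 in BL/6J:NZB and fell by 0.51 (adjusted p = 0.04402).

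Few genes that anchor the contractile apparatus passed the test. Of 29 tested genes of the costamere, dystrophin complex and intercalated disc 1 fell, 0 rose, 14 had all 3 libraries below and 0 all 3 above, with a median of -0.17. Dag1, dystroglycan, which links dystrophin to laminin outside the cell, was 367, 292 and 319.6 in BL/6J:C57 and 241, 218 and 183 in BL/6J:NZB (log2 fold change -0.61, SE 0.10, adjusted p = 0.0214). Sgcd, delta-sarcoglycan, and Ctnna3, alpha-T-catenin, also named after their values were seen, were at -0.58 and -0.50 with all 3 libraries below and no call. Of 29 thin filament and Z-disc genes 2 fell, 10 had all 3 libraries below and 3 all 3 above, with a median of -0.11. Xirp1, an actin-binding protein of the intercalated disc, was 311, 253 and 272 in BL/6J:C57 and 226, 193 and 169 in BL/6J:NZB (log2 fold change -0.51, SE 0.11, adjusted p = 0.04402). Cmya5, a large muscle protein that binds titin, was 736, 619 and 651 in BL/6J:C57 and 512, 494 and 423 in BL/6J:NZB (log2 fold change -0.49, SE 0.11, adjusted p = 0.0487). With the length trend taken out 0 thin filament and Z-disc genes were called (adjusted p = 0.0703 for Xirp1 and 0.0711 for Cmya5). Palld, palladin, which bundles actin and is on neither list, was 172, 139 and 149.7 in BL/6J:C57 and 105, 105 and 91.8 in BL/6J:NZB (log2 fold change -0.60, SE 0.11, adjusted p = 0.0275). Synpo2, an actin-binding protein of the Z-disc, chosen after its values were seen, was 168, 137 and 151 in BL/6J:C57 and 112, 112 and 109 in BL/6J:NZB (-0.45, adjusted p = 0.0214). Without BL/6J:NZB replicate 3 the medians of the costamere and thin filament lists were -0.12 and -0.08.

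Enzymes of lipid and glycogen storage were among the genes that fell. Gpam, which starts glycerolipid synthesis at the outer mitochondrial membrane, was 179, 166 and 207 in BL/6J:C57 and 133, 119 and 100.01 in BL/6J:NZB (log2 fold change -0.65, SE 0.11, adjusted p = 0.0214). Lpin1, which makes the diacylglycerol for triglycerides, was 253, 214 and 221 in BL/6J:C57 and 181, 168 and 145 in BL/6J:NZB (log2 fold change -0.48, SE 0.09, adjusted p = 0.0304). They were the 2 called of 25 triglyceride and lipid droplet genes. Acsl1, which activates long-chain fatty acids, was 972, 903 and 997 in BL/6J:C57 and 747, 807 and 783 in BL/6J:NZB (log2 fold change -0.30, SE 0.07, adjusted p = 0.0477) and was the 1 called of 35 fatty acid oxidation and PPAR target genes, or 0 with the length trend taken out. In that list 10 had all 3 libraries below and 0 all 3 above, with a median of -0.12. Gys1, muscle glycogen synthase, chosen after its values were seen, was 150.5, 113 and 125 in BL/6J:C57 and 97.3, 84.8 and 90.7 in BL/6J:NZB (-0.50, adjusted p = 0.0276). Glycolysis had 0 of 29 genes called, 10 with all 3 libraries below, 1 with all 3 above and a median of -0.11. The citric acid cycle had 0 of 17 called, 9 with all 3 below, 0 with all 3 above and a median of -0.14, or -0.06 with the length trend taken out. Among the latter, chosen after their values were seen, were Ogdh (-0.37, adjusted p = 0.0503), citrate synthase, Cs (-0.22), and Idh3a (-0.21).

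Receptors and kinases of adrenergic and growth signalling had the lowest median of the lists, -0.23. Of 32 tested 0 were called, 19 had all 3 libraries below and 0 all 3 above. Among them, chosen after their values were seen, were the alpha-1A adrenergic receptor Adra1a (-0.58), the phosphodiesterase Pde3a (-0.50), the endothelin receptor Ednra (-0.45), the neuregulin receptor Erbb4 (-0.39) and the kinase Mtor (-0.34). The median was -0.20 without BL/6J:NZB replicate 3, -0.20 with the length trend taken out, 0.13 in livers and -0.06 in hearts on the NZB nuclear genome. Of called genes outside the lists, chosen after their values were seen, the transcription factor Stat3 was 163, 143 and 149 in BL/6J:C57 and 126, 104 and 109.9 in BL/6J:NZB (-0.42, adjusted p = 0.0423). The receptor kinase Axl was 66.1, 62.3 and 62.1 in BL/6J:C57 and 50.8, 43.5 and 50.4 in BL/6J:NZB (-0.39, adjusted p = 0.0285). Ace, the angiotensin-converting enzyme, was 48.8, 43.1 and 43.4 in BL/6J:C57 and 35.3, 34.8 and 32.96 in BL/6J:NZB (-0.38, adjusted p = 0.0475). Of the genes with the largest decreases, the phosphatase Inpp4b fell by 0.64, the protocadherin Pcdh7 by 0.59, the kinase Dyrk1b by 0.55 and Tbck by 0.68. Eef1a2, a translation elongation factor of muscle and neurons, fell by 0.37, and Alpk2, an alpha-kinase, by 0.47. Llph and Hist2h2aa2 rose by 0.78 and 0.91, and 21.4% of the words of Llph and all words of Hist2h2aa2 occur in other genes.

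Few markers of the other cells of the heart passed the test. In bulk tissue, more cells of a type and more RNA per cell cannot be told apart. Endothelial markers had 2 of 20 called higher, 4 with all 3 libraries above and 0 below, and a summed level of 1956 to 2131 in BL/6J:C57 and 2211 to 2469 in BL/6J:NZB. Their median log2 fold change was 0.10, or 0.08 without BL/6J:NZB replicate 3. The called members were Egfl7, which endothelial cells secrete, at 84.95, 87.9 and 88.5 in BL/6J:C57 and 106, 108 and 126 in BL/6J:NZB, and Fabp4, a fatty acid carrier of capillaries and adipocytes, at 306, 367 and 340.5 in BL/6J:C57 and 396, 489.7 and 558 in BL/6J:NZB. Both calls were lost with the length trend taken out (adjusted p = 0.0633 for Egfl7 and 0.0511 for Fabp4). Adgrl4, an endothelial adhesion receptor that is not on the list, was 57.2, 51.02 and 48.4 in BL/6J:C57 and 68.1, 69.1 and 67.5 in BL/6J:NZB (log2 fold change 0.38, SE 0.08, adjusted p = 0.0421). Tm4sf1, Lmo2 and Tmsb4x, chosen after their values were seen, rose by 0.56, 0.47 and 0.54. They are on none of the lists and are not counted as endothelial markers here. Smooth muscle and pericyte markers had 2 of 15 called lower and a sum of 2439 to 2727 in BL/6J:C57 and 2312 to 2322 in BL/6J:NZB. These were Abcc9 and Acta2, smooth muscle actin, at 150.5, 111 and 142 in BL/6J:C57 and 79.6, 98.5 and 96.4 in BL/6J:NZB (log2 fold change -0.55, SE 0.10, adjusted p = 0.0303). Of 11 mesothelium and epicardium markers 8 had all 3 libraries above, 0 below and 1 was called, with a median of 0.46 and a sum of 188 to 233 in BL/6J:C57 and 265 to 329 in BL/6J:NZB. The called member was Gpm6a, a membrane glycoprotein also listed as a neuron marker, at 5.195, 7.31 and 6.84 in BL/6J:C57 and 11.8, 10.8 and 13.5 in BL/6J:NZB (log2 fold change 0.81, SE 0.17, adjusted p = 0.0421, and adjusted p = 0.0602 with the length trend taken out). Chosen after their values were seen, mesothelin, Msln, was at 1.06 and Upk3b at 0.86 on the log2 scale without a call. Fibroblast markers had 0 of 20 called. Extracellular matrix genes had 1 of 50 called higher, the cell surface proteoglycan Gpc3, at 4.83, 5.56 and 5.17 in BL/6J:C57 and 8.94, 9.53 and 12.97 in BL/6J:NZB. They had 2 called lower, Col15a1 at 117, 106 and 128 in BL/6J:C57 and 94.9, 67.8 and 80.6 in BL/6J:NZB and fibrillin-1, Fbn1, at 69.4, 71.7 and 75.7 in BL/6J:C57 and 59.8, 57.02 and 54.7 in BL/6J:NZB. With the length trend taken out 0 and 0 of the matrix genes were called. Of 18 complement genes 1 fell, C7, a component of the membrane attack complex, at 8.75, 7.15 and 6.097 in BL/6J:C57 and 3.43, 3.81 and 4.299 in BL/6J:NZB (log2 fold change -0.77, SE 0.16, adjusted p = 0.0421). Atrial, macrophage, lymphocyte, neutrophil and skeletal muscle markers had 0 members called.

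Hepatocyte markers were present in traces. Of 26 tested 0 were called, 11 had all 3 libraries above and the median was 0.95, with sums of 73.9 to 91.4 in BL/6J:C57 and 109 to 442 in BL/6J:NZB. Without BL/6J:NZB replicate 3 the median was 0.33. Alb was 7.93, 11.6 and 8.499 in BL/6J:C57 and 13.1, 16.04 and 130.5 in BL/6J:NZB. The haemoglobin genes were also highest in that library, with Hba-a1 at 768, 805 and 1126 in BL/6J:C57 and 829, 1459 and 2858 in BL/6J:NZB and Hbb-bs at 1299, 1177 and 1686 in BL/6J:C57 and 1414, 2237 and 3666 in BL/6J:NZB, and the groups overlapped. The part of these traces in the other results was not tested beyond leaving out that library.

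Several stress and turnover lists held no call. Chaperones of the endoplasmic reticulum had 0 of 20 called and a median of 0.12, with Hspa5 at 655, 569 and 538 in BL/6J:C57 and 752, 665 and 579 in BL/6J:NZB. The mitochondrial integrated stress response had 0 of 22 called and a median of 0.06, and its regulator Atf4 was 73.1, 65.2 and 58.6 in BL/6J:C57 and 75.7, 67.7 and 75.3 in BL/6J:NZB. Mitochondrial import and proteases had 0 of 36 called and a median of 0.03, and dynamics and mitophagy 0 of 31 and -0.03. Antioxidant and NRF2 target genes had 0 of 35 called and a median of 0.00, with the mitochondrial superoxide dismutase Sod2 at 573, 517 and 566 in BL/6J:C57 and 508, 519.7 and 538 in BL/6J:NZB. Muscle ubiquitin ligases, proteasome and autophagy had 0 of 31 called and a median of -0.05, clock genes 0 of 20 and -0.19, and immediate early and heat shock genes 0 of 29 and -0.09. Nnt, the mitochondrial transhydrogenase that carries a deletion in some C57BL/6 substrains, was 1086, 948 and 945 in BL/6J:C57 and 846, 889 and 918 in BL/6J:NZB (log2 fold change -0.16, adjusted p = 0.251). Cox7a2l, a factor of respiratory supercomplexes whose alleles differ between strains, was 199.6, 201 and 205 in BL/6J:C57 and 211, 209 and 234 in BL/6J:NZB (0.11, adjusted p = 0.528).

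**Figure D3:**
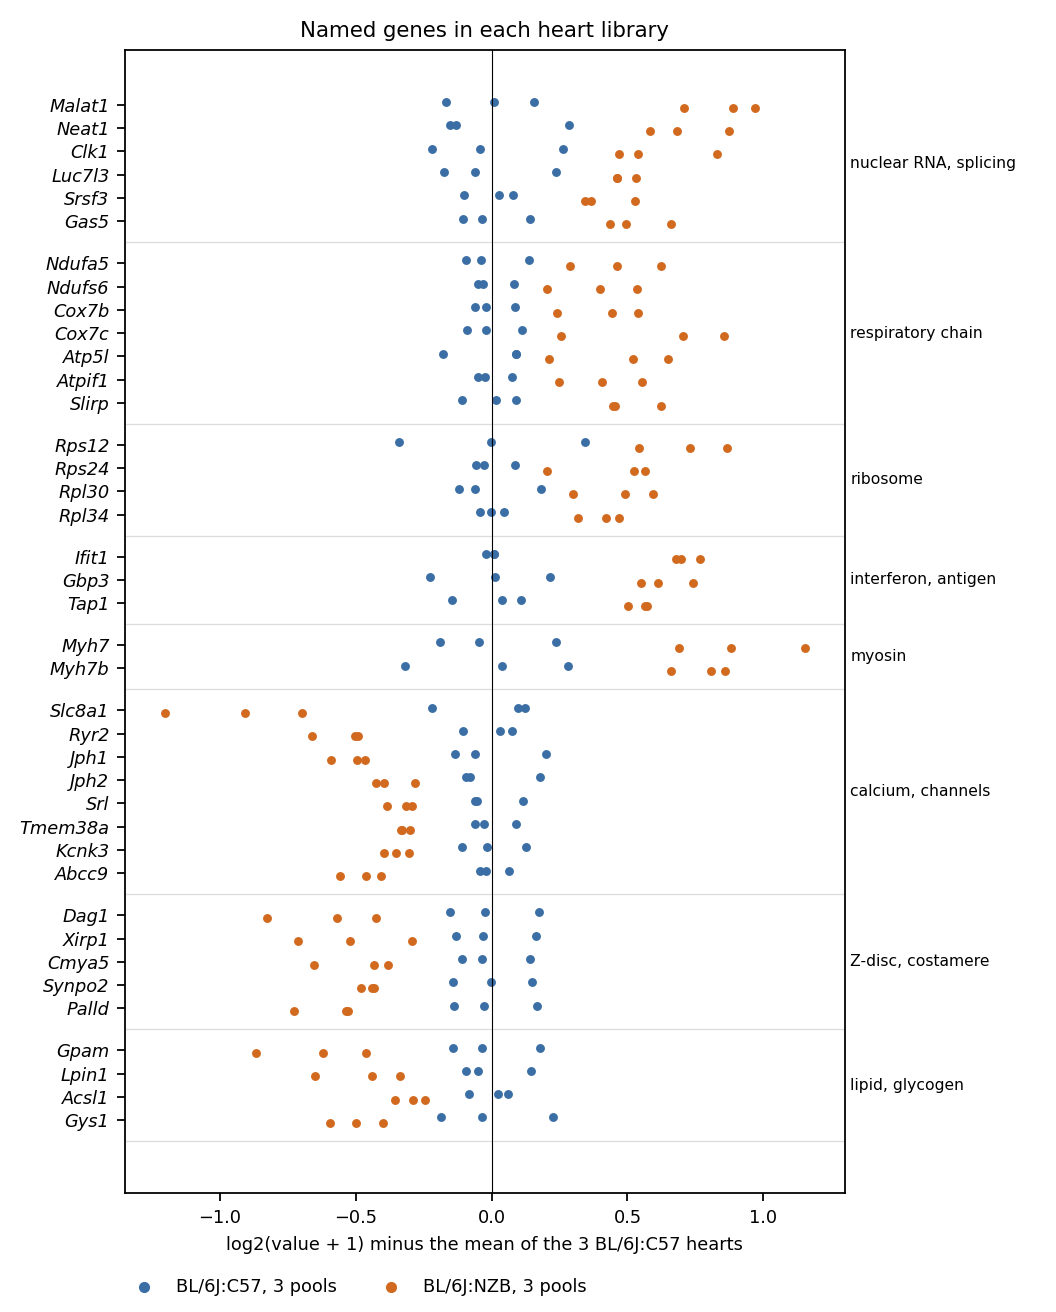
Level of 39 called genes in each of the 6 hearts, as log2(value + 1) minus the mean of the 3 BL/6J:C57 hearts (blue, BL/6J:C57; orange, BL/6J:NZB; 1 point per pool), grouped by role. The groups did not overlap in any gene shown, and Slc8a1, Myh7 and Malat1 had the largest mean shifts of those shown.

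Called genes differed in length by direction. The median exonic length was 3070 bases for genes called higher, 6784 for genes called lower and 4406 for all genes. Genes were split by exonic length into 10 bins of equal size. The median log2 fold change went from 0.14 in the shortest bin (95 to 1643 bases) to -0.09 in the longest (9844 to 123179 bases), and the shortest bin held 17 genes called higher and 0 lower while the longest held 3 and 20. The median of the shortest bin, relative to BL/6J:C57, was 0.07, 0.11 and 0.22 in BL/6J:NZB replicates 1, 2 and 3, and that of the longest -0.07, -0.09 and -0.09. In livers of the same genotypes the order was the opposite, from -0.09 in the shortest bin to 0.08 in the longest. With this trend taken out of each library, 21 genes were called higher and 23 lower, among them 21 and 22 of those called before. Malat1, Neat1, Myh7, Myh7b, Slc8a1, Ryr2, Dag1, Gpam and Slirp were still called. Ndufa5, Ndufs6, Cox7b, Cox7c, Atp5l and Atpif1 were not (adjusted p = 0.0593, 0.102, 0.0905, 0.0781, 0.0561 and 0.0792). The part of RNA quality or library preparation in this trend was not tested.

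**Figure D4:**
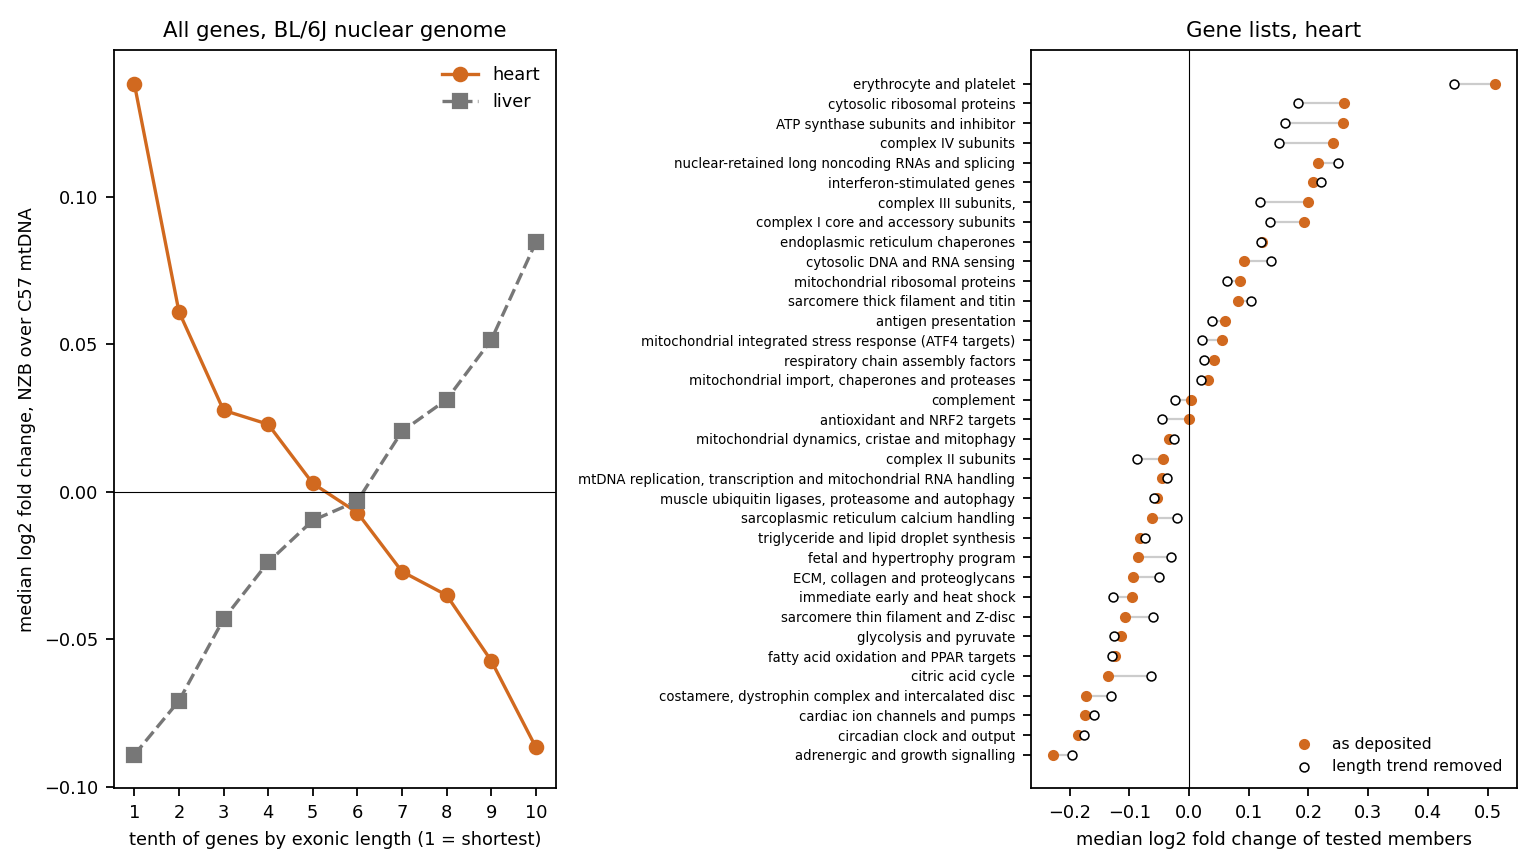
Left, median log2 fold change of NZB over C57 mtDNA in 10 bins of exonic length in heart (orange) and liver (grey) with the BL/6J nuclear genome. Right, median log2 fold change of the tested members of each gene list in heart, from the deposited values (orange) and with the length trend taken out of each library (open). Heart falls from 0.14 to -0.09 while liver rises from -0.09 to 0.08, and the medians of cytosolic ribosomal proteins and of complexes I, III and IV lie nearer to 0 without the trend.

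Some called genes lay near each other. Of the called genes 41 had another called gene within 2 Mb. How many genes would have such a neighbour in a set of equal size drawn from all genes tested was not counted. Besides Malat1 and Neat1, these included Slc35e1 and Tmem38a on chromosome 8 (72480641 to 72587282), which both fell, and Xirp1 and Trak1 on chromosome 9 (120013755 to 121474918), which also both fell. In many other such groups directions differed. Examples are Acta2 and Ifit1 on chromosome 19, Ndufs6 and Slc12a7 on chromosome 13, and Atp5l and Bace1 on chromosome 9. Whether such genes share a passenger segment of the nuclear genome was not tested. Slc35e1, Trak1, Slc12a7 and Bace1 were chosen after their values were seen.

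The effect of NZB mtDNA was also measured on the NZB nuclear genome. There, 30 of the 59 genes called higher also had a higher mean log2 level with NZB than with C57 mtDNA, and 55 of the 70 genes called lower a lower one. The share of all genes in each direction was not counted, so neither count is a result about the called genes. Both counts also rest on the NZB:C57 hearts and on the deposited scaling. The difference between the effects on the 2 nuclear genomes passed the test for 1550 of 13803 genes (11.2%, limma). The NZB:C57 hearts in this difference stand apart: their 20 most abundant genes took 33.4% to 34.1% of reads, against 11.5% to 14.5% in the other hearts, and Myh6 was 91692, 89892 and 87003 in them and 7707, 8913 and 8572 in NZB:NZB hearts. The difference was 3.69 for Myh7, 1.83 for Ryr2 and 1.93 for Jph2, and the part of those libraries in it was not tested. With library totals in place of the deposited scaling, the median difference over all genes moved from 0.01 to -0.59, with 684 genes called higher and 8451 lower against 1354 and 196. The difference was 0.61 for Cox7c (adjusted p = 0.0365), 0.47 for Ndufa5 (adjusted p = 0.0166), 0.61 for Slirp (adjusted p = 0.00643) and 0.57 for Rpl30 (adjusted p = 0.00762). On the NZB nuclear genome these 4 genes were at 0.00, -0.01, -0.10 and -0.11 with NZB over C57 mtDNA on the log2 scale. For Malat1 and Neat1 the differences were 0.25 and 0.38 and did not pass the test (adjusted p = 0.386 and 0.131).

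Liver and heart were compared on the BL/6J nuclear genome. Of 14169 genes 0 differed in the effect of NZB mtDNA between the tissues (0.0%, limma, lowest adjusted p = 0.107), while 2139 did at an unadjusted p under 0.05. By edgeR 0 genes differed and by DESeq2 94. When BL/6J:C57 liver replicate 3 was left out, limma called 269 genes with a higher and 287 with a lower effect in heart. In liver 18 of the 58 genes called higher in heart also had a higher mean log2 level with NZB mtDNA, and 18 of the 70 genes called lower a lower one. The share of all genes in each direction was not counted in liver either. The pools of liver and heart may hold the same animals, and the fit took them as independent.

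**Figure D5:**
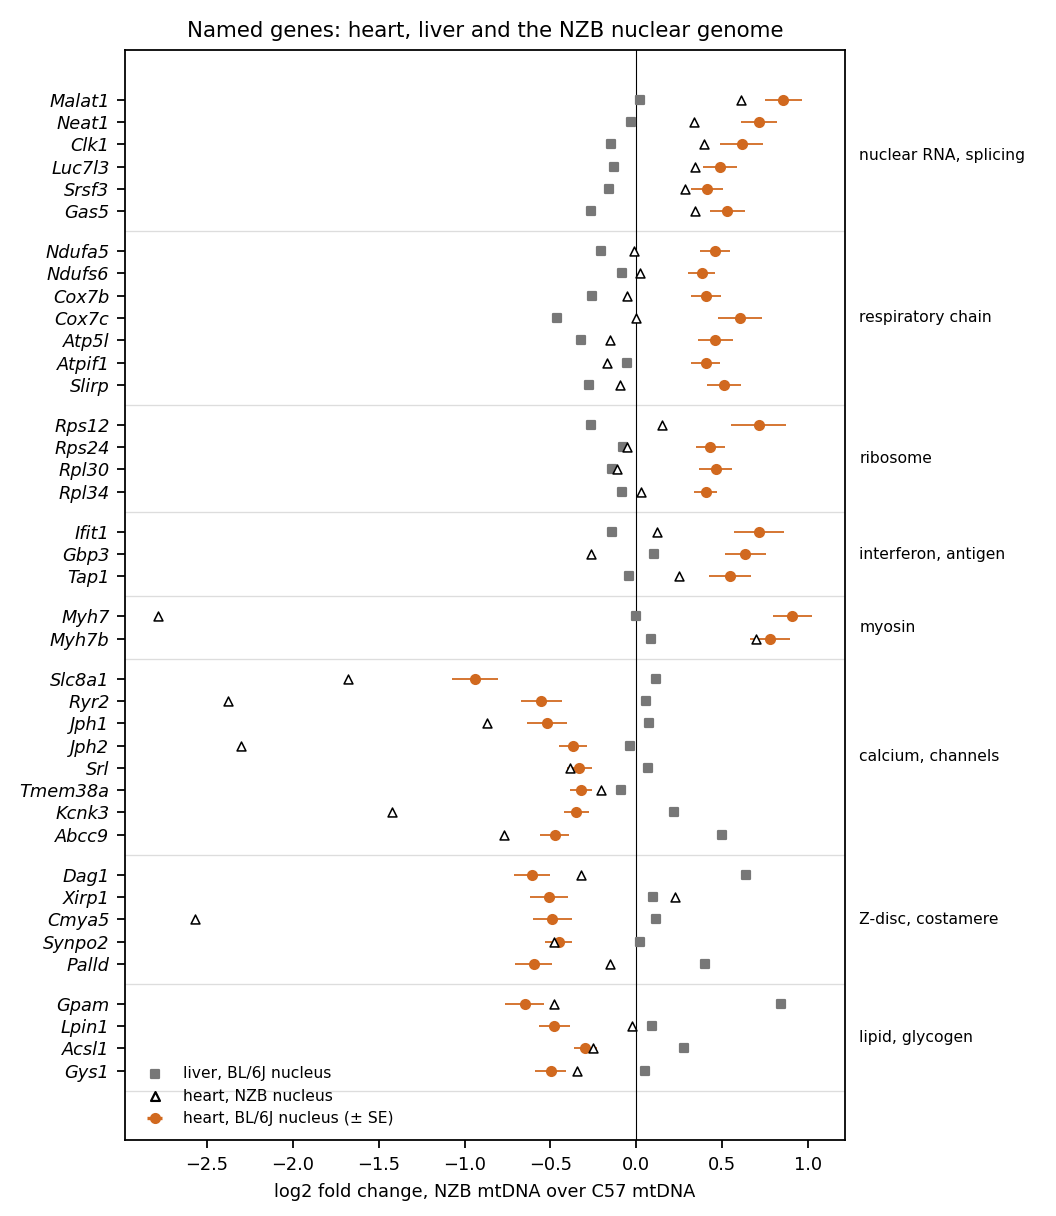
Log2 fold change of NZB over C57 mtDNA for the same 39 genes in BL/6J nuclear genome hearts (orange, ± SE), livers with the BL/6J nuclear genome (grey squares) and hearts with the NZB nuclear genome (open triangles), each from 3 pools a side. The triangles of Myh7, Ryr2, Jph2 and Cmya5 lie below -2, where the NZB:C57 hearts hold high levels of muscle genes.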

How the data were processed

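Polyadenylated RNA of pooled left ventricle or liver was sequenced on an Illumina instrument, per the labels' protocols, and cutadapt 1.2.1, RSEM 1.2.3, Bowtie2 2.0.6, edgeR and GRCm38 are named in the submitters' processing notes, with no role or order given. The deposited values are a normalised signal per gene, and how they were normalised is not stated in the labels. Within a library the values were whole multiples of 1 value (100% of values within 0.01 of a whole number), and these whole reads gave the depths. The table held 15323 genes. The main test was limma 3.58.1 (R 4.3.3) with a mean trend on log2(value + 1), for genes that reached 1 in 3 or more libraries, with the 12 hearts in 1 fit of 4 groups and Benjamini-Hochberg adjustment over all genes tested at 0.05. The plan named edgeR for counts, and since the table holds normalised values, edgeR 4.0.16 and DESeq2 1.42.0 were run on the recovered reads as alternatives. The difference between nuclear genomes used the same fit, and that between tissues the 12 BL/6J libraries. Length trends were removed by lowess within each library. Positions and transcripts are from GENCODE M21, and the scripts were tested on simulated data. The members and gene lists were chosen with earlier results of these data known. Genes named are the 12 highest and 12 lowest called genes that are not predicted models, up to 4 called members of each list, the 2 most abundant members of lists with no call, the 5 called genes with the lowest p for each difference, and Gm13340, Nnt, Mmrn1 and Cox7a2l. Some genes that this rule names are not reported here. Genes outside this rule are marked as chosen after their values were seen, except Gm8116 and ENSMUSG00000089944, which complete a count.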

Additional observations from a re-analysis of the deposited data

Results flagged for a closer look

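For 57 of the genes named in the text the effect of NZB mtDNA in heart differed between the BL/6J and the NZB nuclear genome by a test of the difference itself (limma, adjusted p under 0.05). Over all genes tested 1550 of 13803 (11.2%) passed. Many of the named genes were picked by a call in the heart comparison, which is part of this difference, and some by its p. The count of 57 is therefore no result about these genes. Values are the log2 fold change of NZB over C57 mtDNA on the BL/6J nuclear genome minus that on the NZB nuclear genome. For Gm13340, the pseudogene related to mt-Co1, the difference was 4.66. Among muscle genes and natriuretic peptides it was 4.29 for Nppa, 3.69 for Myh7, 3.25 for Myh6, 2.54 for Alpk2, 2.43 for Eef1a2, 2.08 for Cmya5, 1.93 for Jph2, 1.83 for Ryr2, 1.80 for Sgcd, 1.72 for Acta1, 1.07 for Kcnk3, 0.74 for Slc8a1, -0.65 for Smyd1 and -0.74 for Xirp1. Among genes of the respiratory chain, citric acid cycle and mitochondrial RNA it was 0.61 for Atp5l, 0.61 for Cox7c, 0.61 for Slirp, 0.58 for Atpif1, 0.47 for Ndufa5, 0.46 for Cox7b and -0.35 for Idh3a. Among ribosomal protein genes it was 0.57 for Rpl30, 0.48 for Rps24, 0.42 for Rpl35 and 0.37 for Rpl34. Among vascular, blood, matrix and surface genes it was 1.93 for Hba-a1, 1.89 for Adgrl4, 1.84 for Pcdh7, 1.74 for Hbb-bs, 1.23 for Gpc3, 1.21 for Fabp4, 1.03 for Gpm6a, 0.98 for Mmrn1, 0.85 for Tmsb4x, 0.79 for Lmo2, 0.68 for Tm4sf1, 0.36 for Fbn1 and -1.51 for Col15a1. Among interferon-stimulated and complement genes it was 1.024 for Gbp2, 0.90 for Gbp3, 0.89 for C7, 0.83 for Zbp1 and 0.71 for Oasl2. Among genes of signalling it was 2.08 for Inpp4b, 0.91 for Erbb4, 0.83 for Doc2g, 0.72 for Pde3a, 0.59 for Ednra and -0.70 for Stat3. For the remaining genes it was 1.92 for 1700088E04Rik, 1.51 for ENSMUSG00000092665, 1.51 for ENSMUSG00000092773, 1.39 for ENSMUSG00000089944, 1.37 for Gm10600, 1.35 for Hist2h2aa2 and -0.45 for Lpin1. Mmrn1 had no reads in any BL/6J heart, so its difference rests on the NZB nuclear genome alone. The NZB:C57 hearts, which enter each of these differences, stand apart in their muscle transcripts, and the part of those libraries in the differences was not tested.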

How the results depend on the processing

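In the heart comparison the 59 higher and 70 lower genes became 2 and 1 with no filter on low values, 33 and 33 with the replicate block, 162 and 255 with DESeq2, 21 and 23 with the length trend taken out, 95 and 138 in a fit to the 6 libraries compared, and 18 and 14 without the NZB:C57 hearts. The number higher was 98 with library totals, and the number lower was 122 with a filter at 10, 106 with edgeR and 119 with the GC trend taken out. Leaving out 1 library gave 5 to 109 higher and 0 to 94 lower. The causes were not tested. Of the 129 called genes, those with a fold change under an alternative (121 with a filter at 10, 126 with the GC or the length trend taken out, 128 in the fit to 6 libraries and 129 in the others) kept their direction, and DESeq2 gave no adjusted p for 20 of them. Deviations of same-numbered libraries of the 2 groups correlated at 0.14, 0.07 and 0.17, and those of unlike numbers at -0.18 to 0.05. Each library correlated best with its own number. Whether the replicate numbers pair the pools was not tested, and the main fit did not use them. For the difference between nuclear genomes, 1354 higher and 196 lower, library totals gave 684 and 8451, the length trend 117 lower, and leaving out 1 library 104 to 337 lower. For the difference between tissues, 0 and 0, DESeq2 gave 36 and 58, a fit to all 24 libraries 3 and 8, and leaving out 1 library 0 to 269 higher and 0 to 287 lower. Genes near the filter rest on few reads, as for Gm4076.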
